A study of Mus musculus with 10 samples.

Results

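Adamts7, its paralog Adamts12 and the proteoglycanase genes Adamts1, Adamts4, Adamts5, Adamts8, Adamts9, Adamts15 and Adamts20 were followed in 10 mouse tumors. They are 9 of the 29890 genes listed, and they were taken by symbol, as members of these branches of the family, with earlier results of these data known. The mouse melanoma cell line B2905-M4 was grown as tumors under the skin of female C57BL/6 mice aged 7 to 8 weeks. In 5 tumors the line overexpressed Adamts7 (called Adamts7 tumors) and in 5 it carried the vector alone (called vector tumors), and no tumor received immunotherapy. Of the Adamts7 tumors 2 were taken on day 35 and 3 on day 45, while 3 vector tumors were taken on day 45 and 2 on day 50. No source used here ties a day or a size to a tumor. Size and harvest day therefore cannot be told apart from group. The labels do not say whether a group came from 1 engineered cell population or several, so p-values measure only the spread between these tumors.

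The ADAMTS enzymes are secreted zinc metalloproteinases that carry thrombospondin repeats. They are made as inactive precursors, trimmed by furin-like convertases, and act in the extracellular matrix or at the cell surface. The proteoglycanase branch cuts large proteoglycans such as versican and aggrecan. Adamts7 and Adamts12 form a separate pair with a mucin-like stretch and are best known for cutting cartilage oligomeric matrix protein. In the skin, Adamts20 is the gene of the belted coat mutant, in which melanoblasts fail to fill the trunk.

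Values are TPM, a length-corrected share of all transcripts in a library, which keeps no read depth, so levels of different genes can be set side by side but the depth of each tumor is unknown. Differences are given on the log2(TPM + 1) scale, which understates the change of low genes. They were tested with limma over the 15276 genes whose mean reached 1 TPM, with Benjamini-Hochberg adjustment. Of all genes tested, 34 passed an adjusted p of 0.05, or 0.223%, with 4 higher (0.0262%) and 30 lower (0.196%) in Adamts7 tumors. Median-of-ratios scaling called 8 higher and 21 lower, and quantile normalization 10 and 20. The count rested on single tumors, with 171 higher and 484 lower without the tumor labelled Adamts7 5 and 0 to 4 higher and 5 to 39 lower with any other left out. Array weights called 263 higher and 956 lower, and a replicate block 0 and 0. The median log2 fold change of all tested genes was -0.10, and these scalings moved it to 0.0074 and 0.044.

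The tumors differed in levels of cell type markers. Summed TPM of 7 melanocytic markers lay between 12470 and 22967 in Adamts7 tumors, while vector tumors 3 and 5 had 312 and 1909 and the remaining vector tumors 8375 to 16291. All 7 markers had positive differences, and 0 passed. T cell markers (6 of 6 negative, 0 passed) summed to between 11.9 and 31.0 TPM in Adamts7 tumors and between 30.8 and 279 in vector tumors, with vector tumors 3 and 5 highest. Macrophage markers (5 of 6 negative) summed to 335 to 1622 against 651 to 2453 TPM, fibroblast markers (6 of 8 negative) to 360.3 to 1881 against 459 to 1493, endothelial markers (6 of 7 negative) to 62.6 to 134 against 103 to 163, and smooth muscle and pericyte markers (5 of 7 positive) to 52.1 to 116 against 56.2 to 138. None of these markers passed, and no marker in these lists was at 0 in every tumor. Keratinocyte markers summed to at most 2.29 TPM and adipocyte markers to at most 6.36 TPM in any tumor. Skeletal muscle markers summed to 348 TPM in vector tumor 4 and to at most 5.71 TPM elsewhere. In bulk tissue, fewer cells of a type and less RNA per cell cannot be told apart, and the part of cell content in the differences below was not tested.

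No member passed the test over all genes with all 10 tumors, in either direction. At an unadjusted p under 0.05, 1 member was higher (Adamts7) and 2 were lower (Adamts1 and Adamts5), of the 8 that could be tested; the shares of all genes are 4.86% higher, 15.3% lower and 20.2% in either direction. The groups did not overlap in 2 members, Adamts1 and Adamts5, both lower in Adamts7 tumors, where 3.78% of all genes are lower without overlap and 4.89% are apart in either direction. In the authors' deposited table, made with DESeq2 per the submitters' processing notes, 1 member was higher and 2 lower at an adjusted p under 0.05, against 2.48% and 5.48%, or 7.96% in all, of the genes with an adjusted p there. They were the same 3 genes. Adamts7 is the gene the line was made to overexpress, so its higher level was set by the design. The counts of members higher therefore say nothing of the rest of the family.

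**Figure D1:**
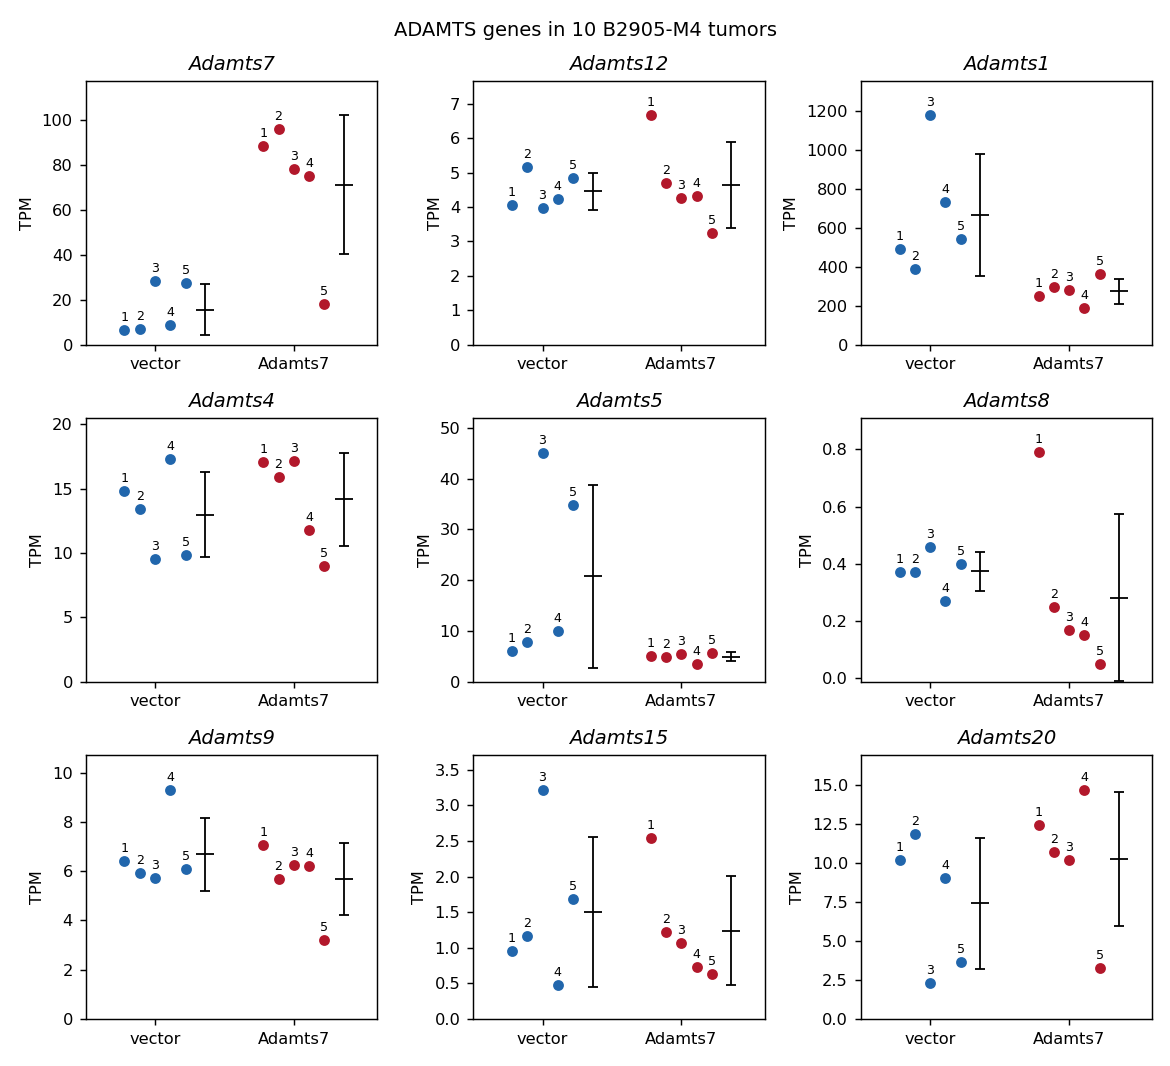
TPM of the 9 genes in each tumor, vector tumors in blue and Adamts7 tumors in red, with the tumor number above each point and the group mean ± SD (n = 5) in black beside the points. Adamts1 and Adamts5 separate the groups, and Adamts7 does so except for the tumor labelled Adamts7 5, at 18.2 TPM, and vector tumors 3 and 5, at 28.3 and 27.6 TPM.

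The overexpressed gene itself, Adamts7, had levels of 88.5, 96.0, 78.2, 74.8 and 18.2 TPM in Adamts7 tumors 1 to 5. Its levels in the vector tumors, 1 to 5, were 6.49, 6.98, 28.3, 8.57 and 27.6 TPM. The tumor labelled Adamts7 5 thus lay below vector tumors 3 and 5, and every difference between the groups takes its label as given. The log2 fold change of Adamts7 was 2.21 (SE 0.54, 95% interval 1.01 to 3.41, limma adjusted p = 0.104). In the authors' deposited table Adamts7 had a log2 fold change of 2.32 (SE 0.52) with an adjusted p of 0.000817. The expression table gives 1 value per tumor for Adamts7, so transcripts of the introduced gene and of the mouse's own gene are not separated.

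Among the fits that left out tumors, the limma call for Adamts7 followed the tumor labelled Adamts7 5. Leaving out the tumor labelled Adamts7 5 gave 2.64 (adjusted p = 0.0238, a fit that called 4.29% of all genes). Without vector tumors 3 and 5 it was 2.93 (adjusted p = 0.0681), and with all 3 left out it was 3.36, in a fit that called 5.24% of all genes. These 3 are the lowest Adamts7 tumor and the 2 highest vector tumors in Adamts7 itself, so the larger folds without them follow from that choice and support nothing. Under limma's array weights, which give tumors that stand apart less say, it was 3.03 (adjusted p = 0.00517, 7.98% of all genes called). Under array weights, without the tumor labelled Adamts7 5 and without all 3 tumors, Adamts7 and Adamts1 were the members called.

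The 6 tested genes nearest to Adamts7 had smaller differences. On chromosome 9, the 3 nearest tested genes on one side are Morf4l1, a chromatin protein gene, Ctsh, a lysosomal protease, and Tmed3, a secretory pathway gene. On the other side lie Tbc1d2b, Gm5620 and Plscr1. The log2 fold changes of Morf4l1, Ctsh and Tmed3 were -0.20, -0.84 and -0.31, and those of Tbc1d2b, Gm5620 and Plscr1 were -0.52, 0.24 and 0.07. None of the 6 passed the limma test, with adjusted p-values from 0.113 for Tbc1d2b to 0.843 for Plscr1. Their group ranges all overlapped.

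Adamts12, the paralog of Adamts7, kept to a narrow range. It was at 6.66, 4.69, 4.25, 4.33 and 3.23 TPM in the Adamts7 group (tumors 1 to 5) and 4.05, 5.17, 3.97, 4.22 and 4.84 TPM in the vector group. The highest and the lowest of the 10 values both came from Adamts7 tumors, and the vector range lay inside the Adamts7 range. For Adamts12 the log2 fold change was 0.03 (SE 0.18, 95% interval -0.36 to 0.41, limma adjusted p = 0.945), and in the authors' deposited table it was 0.17 (SE 0.19, adjusted p = 0.618). The interval of Adamts12 lies wholly below that of Adamts7, and a p that misses the threshold does not show equal levels.

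Set against its paralog within each tumor, Adamts7 was between 5.64 and 20.5 times as abundant as Adamts12 in Adamts7 tumors and between 1.35 and 7.12 times in vector tumors. The lowest of the Adamts7 tumors was again the tumor labelled Adamts7 5. Of all 75-base stretches in the GENCODE M21 coding transcripts of each of the 9 genes, 0% occurred in a transcript of any other gene. That annotation is of an older build than the authors' mm39.

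Adamts1 was the most abundant ADAMTS gene in all 10 tumors. It encodes a versican-cutting enzyme also known for restraining blood vessel growth. It was at 249, 294, 279, 187 and 360.1 TPM in the Adamts7 group (tumors 1 to 5) and 489.5, 386, 1177, 734 and 542 TPM in the vector group. Every Adamts7 tumor lay below every vector tumor, with the tumor labelled Adamts7 5 and vector tumor 2 nearest to each other. The group means were 274 ± 63.2 and 666 ± 312 TPM (SD, n = 5 each), a 2.43-fold higher mean in vector tumors.

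The log2 fold change of Adamts1 was -1.20 (SE 0.28, 95% interval -1.83 to -0.57, limma adjusted p = 0.0953). It stayed between -1.37 and -0.95 over 21 alternative fits, with adjusted p-values from 0.0181 to 0.244, and passed in 3 of them. These 3 were array weights (adjusted p = 0.0181), the fit without the tumor labelled Adamts7 5 (adjusted p = 0.0449) and the fit without that tumor and vector tumors 3 and 5 (adjusted p = 0.0481). Those fits called 7.98%, 4.29% and 5.24% of all genes. The tumor labelled Adamts7 5 had the highest Adamts1 of the Adamts7 tumors, so passing without it follows in part from that choice and supports nothing. Adamts1 had in the authors' deposited table a log2 fold change of -1.15 (SE 0.31) and an adjusted p of 0.00813.

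RefSeq promoter entries matched 4 of the 9 genes, Adamts1, Adamts9, Adamts12 and Adamts20. The 250 bases before the start are shown for Adamts1, the member with the highest level and a group difference without overlap, and for Adamts12, which had a low and even level. Capitals mark TATAAA, the TATA box, and GGGCGG, the GC box, searched on both strands.
Adamts1: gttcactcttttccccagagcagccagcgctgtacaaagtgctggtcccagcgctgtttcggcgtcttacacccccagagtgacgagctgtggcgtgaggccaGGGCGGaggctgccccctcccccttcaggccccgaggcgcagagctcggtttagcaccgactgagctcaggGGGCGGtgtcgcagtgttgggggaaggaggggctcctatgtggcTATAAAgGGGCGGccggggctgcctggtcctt
Adamts12: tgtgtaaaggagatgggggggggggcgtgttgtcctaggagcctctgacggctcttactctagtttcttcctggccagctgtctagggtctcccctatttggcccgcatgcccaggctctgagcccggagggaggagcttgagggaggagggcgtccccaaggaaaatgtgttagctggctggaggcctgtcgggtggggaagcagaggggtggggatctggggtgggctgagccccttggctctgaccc
The Adamts1 stretch is chr16:85803114-85803363 on the minus strand and the Adamts12 stretch chr15:11064523-11064772 on the plus strand, both in GRCm38.p6. Adamts1 held 1 TATA box, beginning 32 bases before the start, and 3 GC boxes, and 1 of these follows the TATA box after a single base. Adamts12 held neither motif. Of all 32851 promoter stretches of this length, 12.4% held TATAAA and 32.7% GGGCGG. Neither stretch held CCAAT (the CCAAT box), TGACTCA (AP-1), TTCNNNGAA (STAT), CACGTG (E-box) or CATGTG (the core bound by MITF). Of the members whose stretches are not shown, both with overlapping groups, Adamts20 held 3 GC boxes and Adamts9 held 1. Neither of those held TATAAA, so GC boxes do not set Adamts1 apart. A match is a description of letters and not of binding.

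Adamts5, the main aggrecanase of mouse cartilage, was the other gene whose groups did not overlap. It was at 5.10, 4.97, 5.46, 3.54 and 5.76 TPM in the Adamts7 group (tumors 1 to 5) and 5.97, 7.82, 45.2, 10.0 and 34.9 TPM in the vector group. Vector tumors 3 and 5 were several times above all others, and vector tumor 1 lay only just above the tumor labelled Adamts7 5. For Adamts5 limma gave a log2 fold change of -1.46 (SE 0.50, 95% interval -2.56 to -0.36, limma adjusted p = 0.167). Without vector tumors 3 and 5 it was -0.57 (SE 0.20, adjusted p = 0.299). Leaving out tumors cannot make groups overlap that are apart, so that fit says nothing of the separation. Adamts5 had in the authors' deposited table a log2 fold change of -1.93 (SE 0.51) and an adjusted p of 0.00664.

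Adamts1 and Adamts5 lie next to each other on chromosome 16, with no other tested gene between them in the RefSeq gene table of GRCm38. Both were lowest in Adamts7 tumor 4 and highest in vector tumor 3. The excess of Adamts5 in vector tumors 3 and 5 was larger than that of Adamts1, so that the ratio of Adamts1 to Adamts5 was 26.1 and 15.5 there against 48.9 to 82.0 in the remaining 8 tumors. Of the 6 tested genes nearest to the pair, Gm6278, Gm2541 and Cyyr1 lie before Adamts1. Gm6278, the nearest, was at 5.25 ± 2.52 against 3.25 ± 1.41 TPM, with a log2 fold change of 0.53, and Gm2541 had one of -0.13, both with overlapping groups. Cyyr1 was at 1.03 ± 0.129 against 2.94 ± 1.11 TPM (SD, n = 5 each) without overlap, with a log2 fold change of -0.91 (limma adjusted p = 0.105). N6amt1, Ltn1 and Rwdd2b, beyond Adamts5, had log2 fold changes of -0.36, -0.04 and -0.35, with overlapping groups.

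**Figure D2:**
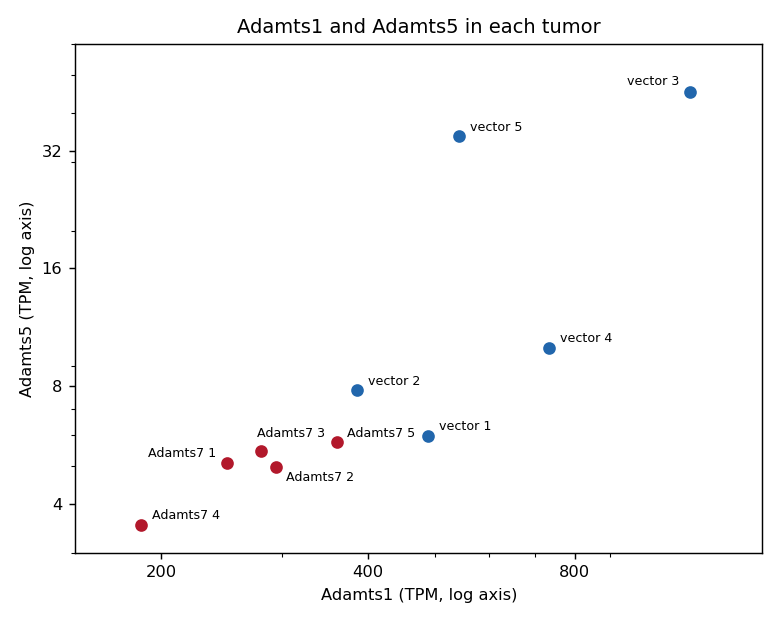
Adamts5 against Adamts1 in TPM in each of the 10 tumors, both axes logarithmic, vector tumors in blue and Adamts7 tumors in red. Adamts7 tumors occupy the lower left, at 187 to 360.1 TPM of Adamts1 and 3.54 to 5.76 TPM of Adamts5, and vector tumors 3 and 5 have the most Adamts5.

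Adamts4, the other enzyme named an aggrecanase, did not follow Adamts5. It was at 17.1, 15.9, 17.2, 11.8 and 9.02 TPM in the Adamts7 group (tumors 1 to 5) and 14.8, 13.4, 9.55, 17.3 and 9.86 TPM in the vector group. The 3 lowest values were those of the tumor labelled Adamts7 5 and vector tumors 3 and 5, the last 2 of which were the highest in Adamts5. For Adamts4 the log2 fold change was 0.11 (SE 0.22, 95% interval -0.37 to 0.60, limma adjusted p = 0.778), and -0.12 without vector tumors 3 and 5.

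Adamts9 and Adamts20, the 2 members with a C-terminal Gon domain, which act on versican in embryonic skin and pigment cell development, were at moderate levels. Adamts9 was at 7.05, 5.69, 6.25, 6.20 and 3.20 TPM in the Adamts7 group (tumors 1 to 5) and 6.41, 5.94, 5.71, 9.31 and 6.08 TPM in the vector group. Its log2 fold change was -0.22 (SE 0.20, 95% interval -0.67 to 0.23, limma adjusted p = 0.537), and quantile normalization turned it to 0.04. Most tumors thus fell in a narrow band, with the tumor labelled Adamts7 5 below it and vector tumor 4 above it.

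Adamts20 was at 12.4, 10.7, 10.2, 14.7 and 3.29 TPM in the Adamts7 group (tumors 1 to 5) and 10.2, 11.8, 2.31, 9.07 and 3.67 TPM in the vector group. Low values, between 2.31 and 3.67 TPM, came from 3 tumors, namely vector tumors 3 and 5 and the tumor labelled Adamts7 5. The other 7 lay between 9.07 and 14.7 TPM in both groups. Summed melanocytic markers were 312 and 1909 TPM in vector tumors 3 and 5, the lowest of the 10. They were 12470 TPM in the tumor labelled Adamts7 5, the lowest of the Adamts7 tumors, and 8375 TPM in vector tumor 4. In the tumor labelled Adamts7 5, Pmel, Mlana, Tyrp1 and Sox10 were the lowest of the Adamts7 tumors. Dct was above Adamts7 tumor 2 alone there, and Mitf was the median of that group. Tyr, at 496 TPM, was the highest of all 10 tumors. A link between these markers and Adamts20 was not tested. For Adamts20 limma gave a log2 fold change of 0.48 (SE 0.45, 95% interval -0.51 to 1.47, limma adjusted p = 0.539) and -0.13 without vector tumors 3 and 5.

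Adamts15 and Adamts8, which lie next to each other on chromosome 9, were the least abundant members. Adamts15 was at 2.54, 1.22, 1.07, 0.73 and 0.63 TPM in the Adamts7 group (tumors 1 to 5) and 0.96, 1.16, 3.22, 0.47 and 1.68 TPM in the vector group. Its groups overlapped widely, with a log2 fold change of -0.12 (SE 0.32, 95% interval -0.83 to 0.58, limma adjusted p = 0.842), and its sign turned under 5 of 20 alternatives. Adamts8, a relative of Adamts1 also known for restraining vessel growth, was above 0 in all 10 tumors but at 0.05 to 0.79 TPM in Adamts7 and 0.27 to 0.46 TPM in vector tumors. It was the 1 member under the filter on low values. In the authors' deposited table, with a mean normalized count of 12.6 for Adamts8 and 89.2 for Adamts15 against 24554 for Adamts1, their log2 fold changes were -0.32 (SE 0.59) and -0.18 (SE 0.50).

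**Figure D3:**
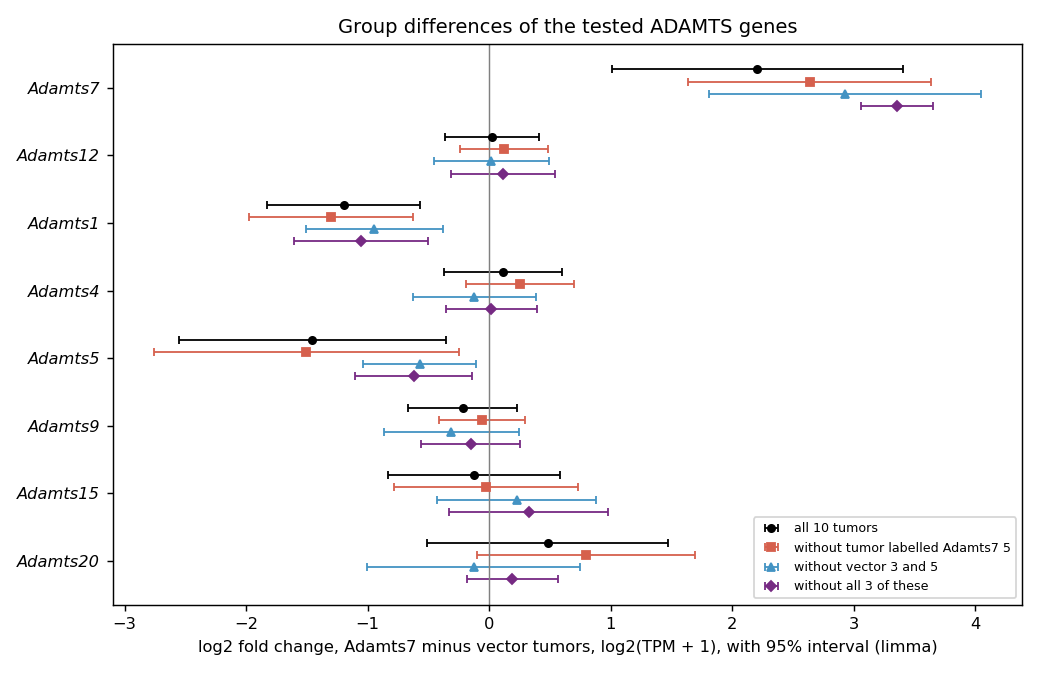
Log2 fold change of each tested member, Adamts7 minus vector tumors on the log2(TPM + 1) scale, with its 95% interval from limma, for all 10 tumors and for 3 fits that leave out tumors that stood apart. When all 3 tumors are left out, Adamts5, highest in 2 of them, moves from -1.46 to -0.62, Adamts1 from -1.20 to -1.05, and Adamts7, whose extreme tumors these are, from 2.21 to 3.36.

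The order of mean levels among the members differed between the groups in the place of Adamts5 alone. In Adamts7 tumors the means ran Adamts1, Adamts7, Adamts4, Adamts20, Adamts9, Adamts5, Adamts12, Adamts15 and Adamts8. In vector tumors they ran Adamts1, Adamts5, Adamts7, Adamts4, Adamts20, Adamts9, Adamts12, Adamts15 and Adamts8. The range of Adamts1 stood clear of the next gene in both groups, and Adamts7 stood clear of Adamts4 in Adamts7 tumors, where it was second of all 19 ADAMTS genes in each of the 5. From Adamts4 down to Adamts12 in Adamts7 tumors, and from Adamts5 down to Adamts9 in vector tumors, neighbours in the order had overlapping ranges. In vector tumors Adamts7 ranked between 3 and 7 of the 19. The place of Adamts5 in the vector means came from vector tumors 3 and 5, where it ranked 2 of the 19, against 7, 5 and 4 in vector tumors 1, 2 and 4.

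Summed over the 19 ADAMTS genes, TPM was 414 ± 53.0 in Adamts7 tumors and 776 ± 341 in vector tumors (SD, n = 5 each). The ranges, 321 to 457 and 471 to 1339, did not overlap. Most of each sum was Adamts1, whose own groups did not overlap, so this gap says nothing of the other ADAMTS genes. Adamts1 made up 65.9% ± 11.2 of the sum in Adamts7 tumors and 85.0% ± 4.38 in vector tumors (SD, n = 5 each). Adamts7 made up between 18.2% and 23.3% in Adamts7 tumors 1 to 4, 4.30% in the tumor labelled Adamts7 5, and between 1.04% and 4.02% in vector tumors. Even with the introduced gene, Adamts1 transcripts outnumbered those of Adamts7 in every tumor, by 2.50 to 19.8 times in Adamts7 tumors and by 19.7 to 85.6 times in vector tumors.

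**Figure D4:**
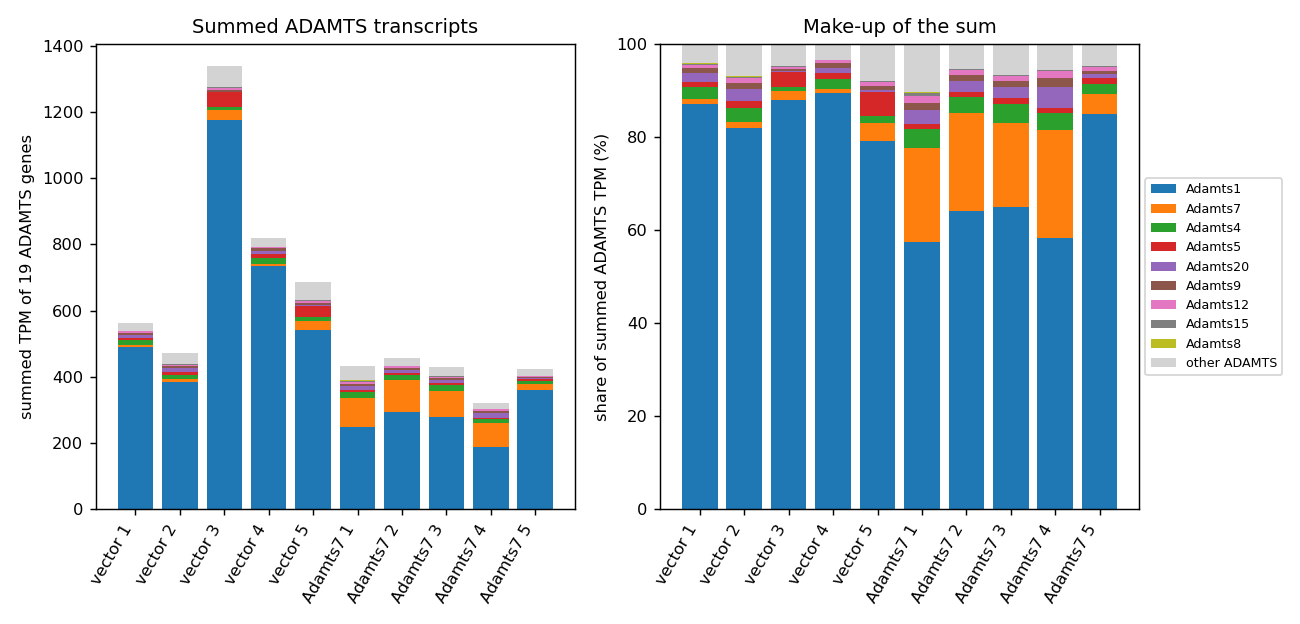
Summed TPM of the 19 ADAMTS genes in each tumor (left) and each gene's share of that sum in percent (right), with the 10 genes outside the 9 described here in grey. Adamts1 is the largest part of every bar, and Adamts7 takes 18.2% to 23.3% of the sum in Adamts7 tumors 1 to 4.

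The rest of the family and the genes that act on it were read from lists that had been drawn up with earlier results of these data known. In the limma test over all genes 0 members of any list passed, against 0.223% of all genes. At an unadjusted p under 0.05, 2 of the 4 tested genes among the 10 other ADAMTS were lower and 0 higher, where 15.3% of all genes are lower and 4.86% higher, with a list median of -0.54 against -0.10 for all genes. They were Adamts6, at 2.32 ± 0.657 against 7.55 ± 4.51 TPM, and Adamts10, at 10.8 ± 2.45 against 18.5 ± 6.77 TPM (SD, n = 5 each), a pair linked to fibrillin microfibrils. The highest Adamts7 tumor, at 2.95 TPM of Adamts6, lay just above the lowest vector tumor, at 2.93 TPM. The authors' deposited table gave Adamts6 a log2 fold change of -1.58 (SE 0.40, adjusted p = 0.00329). Adamts14, a procollagen-trimming enzyme gene, was at 5.79 ± 2.47 against 8.50 ± 5.04 TPM. Its vector mean was carried by tumors 3 and 5, at 14.27 and 13.71 TPM. Vector tumors 1, 2 and 4 had 4.59, 4.27 and 5.66 TPM, against 3.54 to 9.70 TPM in Adamts7 tumors. Adamts6 (14.02 and 10.16 TPM) and Adamts10 (27.95 and 23.12 TPM) were also highest in vector tumors 3 and 5.

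The ADAMTS-like genes, which encode relatives without a protease domain, had 3 positive and 4 negative differences of 7, with a median of -0.10. Adamtsl5, at 67.8 ± 24.4 against 45.5 ± 8.17 TPM, was the most abundant of the 3 named by p-value, and Adamtsl1 and Adamtsl3 averaged 2.06 ± 1.22 against 7.84 ± 9.00 TPM and 0.532 ± 0.205 against 1.49 ± 0.958 TPM. The vector mean of Adamtsl1 was carried by tumors 3 and 5, at 9.82 and 22.75 TPM. Vector tumors 1, 2 and 4 had 1.19, 3.57 and 1.87 TPM, against 1.32 to 4.22 TPM in Adamts7 tumors. None of the 7 ADAMTS-like genes reached an unadjusted p under 0.05 in the limma fit, against 20.2% of all genes in either direction.

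Among the proteoglycan substrates and the link proteins that hold them to hyaluronan, 2 of 4 tested genes were lower at an unadjusted p under 0.05 (15.3% of all genes), with a median of -0.88. Acan, which encodes aggrecan, lay at 0.04 to 0.09 TPM in every Adamts7 tumor and at 0.41, 1.12, 8.08, 0.21 and 32.7 TPM in vector tumors 1 to 5, without overlap. Nearly all of it was thus in vector tumors 3 and 5, where Adamts5 was also highest. On the log2(TPM + 1) scale, which understates so low a gene, the log2 fold change of Acan was -1.93 (SE 0.81, limma adjusted p = 0.224). The authors' deposited table called Acan lower, with a log2 fold change of -6.82 (SE 1.19, adjusted p = 3.7e-06). Hapln4, a link protein gene, was at 1.28 ± 0.629 against 2.77 ± 0.851 TPM, and Hapln1, another, at 3.37 ± 6.73 against 6.87 ± 9.14 TPM (SD, n = 5 each). Both Hapln1 means were carried by few tumors. Hapln1 was at 15.4 TPM in the tumor labelled Adamts7 5 and 0.09 to 0.54 TPM in the other Adamts7 tumors. In vector tumors 3 and 5 it was at 21.9 and 9.42 TPM, and in the remaining vector tumors at 0.46 to 1.47 TPM. Vcan, which encodes versican, ranged from 2.75 to 13.3 TPM in Adamts7 and from 3.56 to 14.2 TPM in vector tumors.

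Of the inhibitor genes, 1 of 4 tested was lower at an unadjusted p under 0.05, against 15.3% of all genes, so this count is near the background. Reck, a membrane-anchored inhibitor of matrix proteases, was at 14.8, 11.1, 16.7, 14.8 and 13.0 TPM in the Adamts7 group (tumors 1 to 5) and 16.9, 17.0, 52.4, 24.8 and 46.4 TPM in the vector group. The groups came close, at 16.69 and 16.91 TPM, but did not overlap, and vector tumors 3 and 5 were again highest. For Reck the log2 fold change was -0.96 (SE 0.31, limma adjusted p = 0.155). For Reck the authors' deposited table gave -1.03 (SE 0.34, adjusted p = 0.0333). Timp3, the tissue inhibitor that acts best on ADAMTS4 and ADAMTS5, was at 370.2 ± 130 against 282 ± 98.1 TPM (SD, n = 5 each), with a log2 fold change of 0.36 (SE 0.31, limma adjusted p = 0.498), and Timp1 was at 119 ± 60.2 against 93.7 ± 51.2 TPM.

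Genes for the convertases that activate ADAMTS precursors had 0 of 4 tested members at an unadjusted p under 0.05. Of all genes, 20.2% reach it in either direction, so 0 of so few does not set the list apart. Furin was at 54.5 ± 6.91 against 56.4 ± 7.51 TPM (SD, n = 5 each). Pcsk6 reached 132 and 103 TPM in vector tumors 3 and 5 against 1.36 to 9.28 TPM in the remaining 8, and Pcsk5 was at 2.49 ± 1.45 against 1.72 ± 0.840 TPM. The authors' deposited table called Pcsk6 lower, with a log2 fold change of -3.19 (SE 0.99, adjusted p = 0.0238).

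Clearance receptors and cofactors, the 2 genes that add sugars to thrombospondin repeats, and the cytokine genes known to act on ADAMTS transcription also had 0 tested members at an unadjusted p under 0.05. The share of all genes is 20.2% in either direction, and each of these lists is small. Of the 8 cytokine genes 6 were tested, and Il1a and Il6 lay under the filter on low values. Il6 was at 0.10 to 0.43 TPM in Adamts7 and 0.52 to 1.69 TPM in vector tumors, the only cytokine gene listed here whose groups did not overlap. Of all tested genes, 3.78% are lower without overlap, and Il6 was picked after its values were seen. The authors' deposited table did not call it, with an adjusted p of 0.0863. Sdc4, a syndecan that binds ADAMTS5, was at 96.1 ± 24.3 against 132 ± 30.5 TPM, Fbln1, a fibulin cofactor of ADAMTS1, at 6.15 ± 3.01 against 4.07 ± 2.13 TPM, and Mmp17, a membrane-type metalloproteinase that trims ADAMTS4, at 14.4 ± 4.29 against 18.7 ± 7.83 TPM. Pofut2 and B3glct, the glycosylation pair, were at 64.0 ± 10.2 against 54.5 ± 3.93 TPM and 14.3 ± 1.87 against 13.0 ± 4.54 TPM (SD, n = 5 each). Tnf and Il1b, inflammatory cytokine genes, were at 0.914 ± 0.50 against 6.26 ± 7.24 TPM and 1.22 ± 0.911 against 7.48 ± 9.99 TPM, with both vector means carried by tumors 3 and 5. Tgfb2 was at 18.2 ± 8.25 against 25.2 ± 6.20 TPM. The authors' deposited table called Tnf lower, with a log2 fold change of -2.65 (SE 0.83, adjusted p = 0.0246), and Il1a, with -2.20 (SE 0.74, adjusted p = 0.0391).

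**Figure D5:**
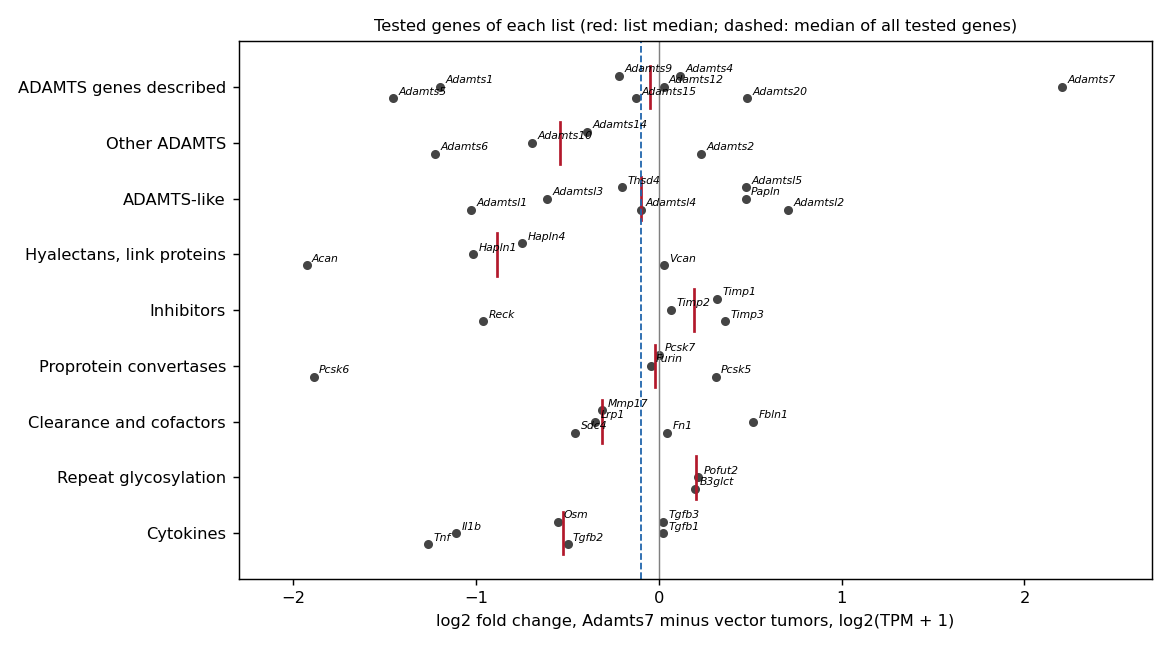
Log2 fold change (Adamts7 minus vector tumors, log2(TPM + 1)) of each tested gene of the 9 ADAMTS genes and the 8 related lists. Red bars are list medians and the dashed line the median of all tested genes, -0.10; Acan and Pcsk6 lie farthest to the left and Adamts7 farthest to the right.

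The genes with the tumor order most like that of a member were taken by Spearman's rho over the 10 tumors, among 12715 tested genes with a standard name. They are a description, since the highest of so many are high by selection. For Adamts7 they were Mturn and Rnf5, both at a rho of 0.94, and Pttg1ip at 0.93, and all 3 had the lowest of their Adamts7 tumor values where it did, in the tumor labelled Adamts7 5. For Adamts12 they were Gtf2f1 (0.95), Ints4 (0.93) and Polr3e (0.92), genes of the transcription machinery with ranges of 28.5 to 46.9, 20.4 to 32.1 and 11.2 to 15.8 TPM. For Adamts1 they were Mlkl, a necroptosis gene, at 0.99, and Pigp and Mrps28, both at 0.98. For Adamts5 they were Bcl2l2, whose tumor order was identical to that of Adamts5, and Bloc1s2 and Mocs2, both at 0.99. Bcl2l2 ran only from 20.8 to 46.9 TPM where Adamts5 ran from 3.54 to 45.2 TPM.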

How the data were processed

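Per the labels' protocols, poly(A) RNA was sequenced as paired reads from libraries with spike-ins and molecular identifiers. Whether counting used them is not stated in those protocols. The authors deposited log2(TPM + 1) per gene symbol, with RSEM and mm39 named in the submitters' processing notes. Undoing the log2 gave sums of 995286 to 998019 TPM per tumor. The authors' deposited comparison table gives each gene's normalized signal averaged over tumors, log2 fold change with standard error, the score of its test, and raw and adjusted p-value. Its identifiers were paired with symbols for 28805 of 30040. The deposited receptor repertoire table was not used here.

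Groups came from sample titles. limma 3.58.1 in R 4.3.3, with a trended prior variance and group as the only term, was fitted to log2(TPM + 1), pseudocount 1, for genes whose mean reached 1 TPM, at an adjusted p of 0.05. The fit was tested on 10 runs of simulated data with 200 changed genes each, every gene drawn independently. It recovered 54.2%, 84.3% and 93.5% of changes of 1, 2 and 3 log2 units, with 8.1 false calls per run. A further 21 alternatives were run, covering the pseudocount, filter, scaling, prior variance, array weights, replicate block and tumors left out. Tables were joined in Python 3.11.15 with pandas 2.3.3. RefSeq promoters and gene order are from GRCm38.p6, and protein sequences were not used here.

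The members and lists were chosen with earlier results of these data known. Named genes are the 9 members, the 3 of each list with the smallest p, the 6 neighbours of Adamts7 and the 3 genes nearest in pattern to each of 4 members. Cyyr1, Gm6278, Gm2541, N6amt1, Ltn1, Rwdd2b, Vcan, Il1a, Il6, Papln, Adamts2, Adamts3, Adamts13, Adamts16, Adamts18 and Adamts19 fall outside that rule, as do the promoter motifs, and were chosen after their values were seen.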

Additional observations from a re-analysis of the deposited data

Results flagged for a closer look

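Of 76 sets of 5 tumors examined (38 genes in each group), 10 held a tumor set apart from the other 4 by a gap above Dixon's 95% critical value on the log2(TPM + 1) scale, and chance gives about 1 in 20. In 8 of the 10 it was the tumor labelled Adamts7 5. Its Adamts7 was 18.2 TPM against 74.8 to 96.0 TPM in the other Adamts7 tumors, its Adamts9 3.20 against 5.69 to 7.05 TPM and its Adamts20 3.29 against 10.2 to 14.7 TPM. Adamtsl5 was also low there, at 27.01 against 63.9 to 87.7 TPM, as was Tmed3, a neighbour of Adamts7, at 49.1 against 79.35 to 87.1 TPM. Hapln1 was high there, at 15.4 against 0.09 to 0.54 TPM, as were Tgfb2, at 32.9 against 13.8 to 15.3 TPM, and Morf4l1, another neighbour of Adamts7, at 404 against 313 to 332 TPM. The others were Adamts9 in vector tumor 4, at 9.31 against 5.71 to 6.41 TPM, and Adamtsl1 in Adamts7 tumor 1, at 4.22 against 1.32 to 1.72 TPM.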

How the results depend on the processing

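The log2 fold changes of Adamts7, Adamts1 and Adamts5 kept their sign in all 21 alternatives, and Adamts5 passed in none. For Adamts1 and Adamts5, whose groups did not overlap, leaving out or weighting tumors could not have turned the sign. The filter, prior variance and replicate block left the log2 fold change itself unchanged. The kept sign is therefore little evidence of stability. Adamts7 passed under array weights (3.03), without the tumor labelled Adamts7 5 (2.64) and without that tumor and vector tumors 3 and 5 (3.36), and lay between 1.99 and 2.64 with 1 tumor left out. In each of these 3 fits 1 member was called higher (Adamts7) and 1 lower (Adamts1), and in all others 0. Between 0 and 1 member was called in each direction with 1 tumor left out. The sign turned for Adamts12 without Adamts7 tumor 1 (-0.092), vector tumor 1 (-0.00056) or vector tumor 3 (-0.0063), against up to 0.12 with another tumor left out, for Adamts4 (-0.12) and Adamts20 (-0.13) without vector tumors 3 and 5, and for Adamts9 under quantile normalization (0.044). For Adamts15 it turned under quantile normalization (0.13), array weights (0.18), without vector tumor 3 (0.089; between -0.30 and 0.089 with 1 tumor left out), without vector tumors 3 and 5 (0.22), and when the tumor labelled Adamts7 5 was dropped along with them (0.32). Of all genes, 1 was higher and 9 lower with no filter, 2 higher with a filter of 5 TPM, 8 higher under median-of-ratios scaling and under a constant prior variance, and 10 higher under quantile normalization. Array weights called 263 higher and 956 lower. Without vector tumors 3 and 5, 2 were higher, and without all 3 tumors 197 were higher and 603 lower. Leaving out 1 tumor gave 0 to 171 higher and 5 to 484 lower, the largest without the tumor labelled Adamts7 5. The causes were not tested. The replicate block, on numbers that share only a label (correlations of same-numbered tumors between -0.28 and 0.26, and 1 of 5 best with its own number), called 0 genes higher and 0 lower, with Adamts7 at 2.21 (SE 0.63, limma adjusted p = 0.176). Tumor size could not be examined, and the depth of each tumor is unknown.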

Other observations

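Papln, which encodes papilin, an ADAMTS-like matrix protein, was at 52.8 TPM in the tumor labelled Adamts7 5 and between 3.27 and 10.7 TPM in the other 9 tumors. In the authors' deposited table Papln has a log2 fold change of 1.22 (SE 0.65) and no p-value. Adamts2, a procollagen-trimming enzyme gene, had its highest value, 18.1 TPM, in Adamts7 tumor 1, which also had the most summed fibroblast markers of the 10 tumors, 1881 TPM. The 5 ADAMTS genes that stayed under 0.5 TPM in every tumor, apart from the 9 described, were Adamts13, at most 0.03 TPM, Adamts16, at most 0.14, Adamts19, at most 0.23, Adamts18, at most 0.30, and Adamts3, at most 0.35 TPM.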
